A study of Mus musculus with 9 samples.

Results

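MLP29 mouse hepatic progenitor cells scatter and migrate after different stimuli, among them an antibody that blocks α5β1 integrin and the growth factor HGF/SF1, and the comparison described here sets the RNA of cells given the antibody directly against that of cells given HGF/SF1. It uses 6 of the 9 arrays of the series, 3 with the antibody and 3 with HGF/SF1, paired by the day in the sample titles into experiments 1, 2 and 3. MLP29 is an established cell line, here grown in RPMI medium and starved in 0.1% serum for at least 16 h before treatment. One group received 10 µg/ml of the anti-α5β1 clone BMB5 and no HGF/SF1, and the other 20 ng/ml of HGF/SF1 and no antibody, both for 24 h. The 3 arrays of starved, untreated cells were left out of the test and are quoted only as a background level. All cells are of the same line. The study's methods name an IgG antibody among the additions used in controls but describe the array controls as untreated, so on these arrays a response to any added antibody and a response to losing α5β1 function cannot be told apart.

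α5β1 integrin is a main receptor by which cells hold on to fibronectin, and it links the matrix outside the cell to actin and to kinases at focal adhesions. HGF/SF1 (hepatocyte growth factor, or scatter factor) binds the receptor tyrosine kinase Met, which signals through Ras and ERK and makes epithelial colonies come apart and move. The first stimulus takes an adhesion signal away and the second adds a growth factor signal, and the question is how the transcripts of cells that migrate by these routes differ.

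Values are log2 levels per probe set as deposited. A difference is always antibody minus HGF/SF1 on this log2 scale, so a difference of 1 is 2-fold, and a gene is given by its brightest probe set, which left 12393 genes. The line was recognised as epithelial by its keratins: Krt8, Krt18 and Krt19 lay between 12.88 and 14.14 on the 6 arrays. The progenitor markers Epcam (4.09 to 4.59) and Afp (3.81 to 4.72) were low on all of them. Of 9 progenitor markers measured, 5 were above the upper quartile of all probe sets on every one of the 6 arrays, against 0 of 5 hepatocyte, 0 of 6 leukocyte, 0 of 6 fibroblast and 0 of 5 endothelial markers. Those 5 were Krt8, Krt18, Krt19, Cd24a and Cdh1. The hepatocyte marker Hnf4a, at 8.23 to 10.09, missed the quartile of 8.28 only by its lowest array. These counts do not tell a progenitor from another epithelial liver cell. As a sign of RNA quality, the 3' probe set of β-actin exceeded the 5' one (log2 difference) by 0.30, 0.75 and 0.61 with HGF/SF1 and 0.23, 0.37 and 0.24 with the antibody. For Gapdh this difference was alike in both, at -0.16, -0.064 and -0.13 with HGF/SF1 and -0.14, -0.067 and -0.13 with the antibody. The part of RNA quality in the results was not tested. The scan label of the antibody array of experiment 3 is out of sequence with the other arrays of that day, which was not tested either.

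Both treated arrays of experiment 1 stood apart from those of experiments 2 and 3. The antibody array of experiment 1 correlated more closely with the untreated array of its own day (r = 0.992 over probe sets) than with the antibody arrays of experiments 2 and 3 (r = 0.984 and 0.981). The HGF/SF1 array of experiment 1 correlated with the other HGF/SF1 arrays at r = 0.983 and 0.981, against 0.99 between those. Counts are therefore given with and without experiment 1, where the fit of the remaining 2 pairs has 1 residual degree of freedom. For a gene list, the numbers given for the latter are of members higher and lower at an adjusted p under 0.05, so they stand at another threshold than the calls over all 3 experiments. Experiment 1 was set apart by its values on these same arrays. Adjusted p-values without it are therefore a description and no independent support.

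No probe set passed an adjusted p under 0.05 (0% of 22626) in the paired limma fit of all 3 experiments, with a smallest adjusted p of 0.153. At an unadjusted p under 0.05, 1583 probe sets were higher and 1965 lower with the antibody, together 15.7% where chance gives 5%. Without experiment 1, 1475 were higher and 1703 lower at an adjusted p under 0.05, together 14% of those tested. When experiment 2 or experiment 3 was left out instead, 0 passed. In a fit of all 9 arrays with the same pairing, 100 were higher and 142 lower at that threshold. In the fit of the 3 independent experiments, the p-value sets the mean difference against the spread of the 3 paired differences. This spread is moderated over all probe sets. Below, a gene is called where its unadjusted p in the limma fit of the 3 experiments was under 0.05.

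By genes, 1964 were called (15.8%), 819 higher with the antibody than with HGF/SF1 (6.61%) and 1145 lower (9.24%). The counts of every list below stand beside these shares, and where a list lies near them its count is no result about the list. A difference of 2-fold or more was found in 110 of the genes called higher (0.888% of all) and in 118 of those called lower (0.952%). The arrays of the 2 treatments did not overlap for 1784 genes (14.4%), of which 711 (5.74%) had all 3 antibody arrays above and 1073 (8.66%) all 3 below. With 3 arrays per treatment chance alone also separates some genes, and that share was not estimated. A difference of at least 2-fold the same way in each experiment was found for 19 genes higher (0.153%) and 23 lower (0.186%). Without experiment 1, 1717 genes (13.9%) passed an adjusted p under 0.05, 726 higher (5.86%) and 991 lower (8%).

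The experiments differed in how far they resembled each other. The differences between the treatments correlated at r = 0.73 between experiments 2 and 3 over probe sets, at 0.19 between 1 and 2 and at 0.085 between 1 and 3. Of 354 genes at least 2-fold apart in both experiments 2 and 3, 352 went the same way. Of 119 such genes in experiments 1 and 2, 30 went opposite ways, and of 108 in experiments 1 and 3, 47 did.

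**Figure D1:**
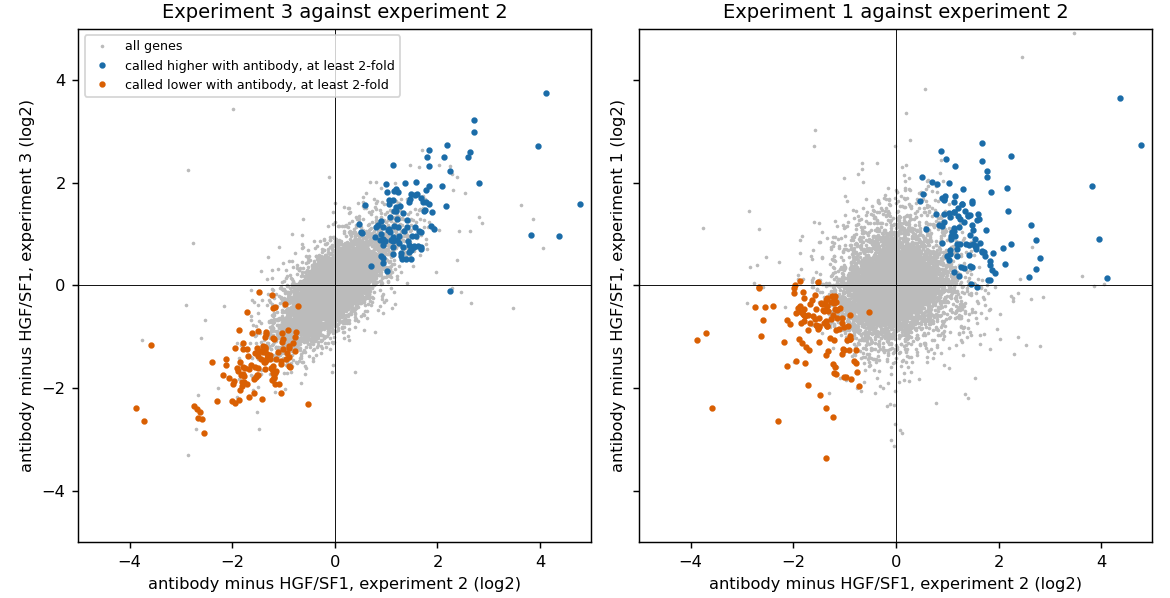
Difference between antibody and HGF/SF1 (log2) of each gene in experiment 3 (left, vertical axis) and experiment 1 (right, vertical axis) against experiment 2 (horizontal axes), 1 point per gene, with genes called at least 2-fold higher (blue) or lower (orange) marked. The cloud is drawn out along the diagonal on the left (r = 0.73 over probe sets) and nearly round on the right (r = 0.19), and the place of the coloured genes is fixed by their choice on all 3 experiments.

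Secreted inflammatory and defense proteins were among the genes with the largest positive differences. S100a9, an alarmin of myeloid cells and stressed epithelium, read 7.00, 4.92 and 8.87 with HGF/SF1 in experiments 1, 2 and 3 and 9.74, 9.70 and 10.46 with the antibody. The antibody arrays were all above the HGF/SF1 arrays, which spread far more. The difference was 3.04 ± 0.64 (SE, 3 pairs), an 8.2-fold higher level, and 3.19 without experiment 1 (adjusted p = 0.042). Lcn2, which binds iron carriers of bacteria, read 4.55, 6.07 and 10.41 against 8.20, 10.45 and 11.37 (3.0 ± 0.71, and 2.67 without experiment 1 at an adjusted p of 0.079). Its groups overlapped, since both arrays of experiment 3 were high. The cytokine gene Il6 read 5.56, 5.59 and 6.71 against 7.49, 9.41 and 7.70 (2.25 ± 0.57, adjusted p = 0.064 without experiment 1), with the antibody arrays apart and above.

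The chemokine gene Ccl7 and Slpi, an inhibitor of neutrophil elastase, differed by like amounts in each experiment. Ccl7 was higher by 1.90, 2.17 and 1.55 in experiments 1, 2 and 3 (1.87 ± 0.15) and Slpi by 1.81, 1.84 and 1.59 (1.75 ± 0.11). Their adjusted p in limma was 0.153 with all experiments for both, and 0.0078 and 0.0063 without experiment 1. Of 28 genes of secreted defense and acute-phase proteins 3 were called higher and 0 lower (1 and 0 without experiment 1), Lcn2, Slpi and Pglyrp1, which was chosen after its value was seen. Of 25 S100 proteins and annexins, 2 were higher and 1 lower (2 and 1 without experiment 1). The shares called higher were 10.7% and 8%, and 7.41% of 27 chemokines, against 6.61% of all genes. These counts are therefore no result about the lists.

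For several genes the antibody array of experiment 1 lay closer to the HGF/SF1 arrays than to the other antibody arrays. Fosl2, an AP-1 subunit, read 5.79, 5.58 and 6.03 with HGF/SF1 and 5.94, 9.70 and 9.78 with the antibody, so the pairs differed by 0.15, 4.12 and 3.75. The estimate was 2.67 ± 0.86 with all experiments and 3.93 without experiment 1 (adjusted p = 0.0052). The kinase gene Pim1 (2.52 ± 0.61), the clock-controlled transcription factor Dbp (2.09 ± 0.61), Lcorl (1.78 ± 0.46), Gabpb1, a partner of an Ets factor (1.76 ± 0.33), and Fam161a of cilia (1.75 ± 0.54) were of this kind too. A second probe set of Gabpb1 was at 0.40 and not called. Without experiment 1 the adjusted p of these 6 genes lay between 0.0052 and 0.0072.

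Slc25a48, a mitochondrial carrier, was higher by 2.11, 1.77 and 1.87 in the 3 experiments (1.92 ± 0.12), while its dimmer probe set was at 0.062. Selenoh, a nuclear selenoprotein, read 8.46, 8.68 and 8.54 with HGF/SF1 and 10.69, 10.46 and 10.17 with the antibody (1.88 ± 0.15), and Gpx1, a selenium-dependent glutathione peroxidase, 11.02, 11.17 and 11.05 against 12.43, 12.21 and 12.12 (1.17 ± 0.13). In both the groups were apart. Acss2, which makes acetyl-CoA from acetate, was higher by 1.45, 2.18 and 2.74 (2.13 ± 0.27) and the sialyltransferase St3gal1 by 1.17, 2.63 and 2.6 (2.13 ± 0.34), least in experiment 1. Cd68, a lysosomal glycoprotein used as a macrophage marker, was higher by 0.89, 2.72 and 2.98 (2.20 ± 0.46). Of 22 macrophage and leukocyte markers measured it was the 1 called higher, and the integrin subunit Itgax (-0.27 ± 0.10) and the mannose receptor Mrc1 (-0.84 ± 0.29) were called lower (2 and 1 without experiment 1). Ptprc, Adgre1, Csf1r, Itgam and Lyz2 were not called. Ptprc, the defining leukocyte marker, stayed between 3.22 and 3.38 on the 6 arrays.

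Among lower genes, Txnip, an inhibitor of thioredoxin that also restrains glucose uptake, read 8.05, 9.65 and 9.69 with HGF/SF1 and 5.41, 7.36 and 7.43 with the antibody. Both arrays of experiment 1 were lower than those of the other days, and the pairs differed alike. The difference was -2.40 ± 0.13, and -2.28 without experiment 1 (adjusted p = 0.0052). Esrp2, a splicing regulator of epithelial cells, differed by -1.27, -1.69 and -1.38 in the 3 experiments and Myd88, the adaptor of Toll-like and IL-1 receptors, by -1.20, -1.75 and -1.62. The dimmer probe set of Esrp2 was at -0.28 and not called. Selenos, a selenoprotein of the endoplasmic reticulum (ER), was lower (-1.54 ± 0.20) where Selenoh and Gpx1 were higher. Uros of heme synthesis (-1.75 ± 0.16), the single-strand DNA-binding protein Nabp1 (-1.68 ± 0.11), Mxd4, which competes with Myc for its partner Max (-1.68 ± 0.23), Cyb561d2 (-1.63 ± 0.17), Wdr81 (-1.56 ± 0.18) and Tmem140 (-1.54 ± 0.17) were lower as well. For each gene of this paragraph that was called lower, all 3 antibody arrays were below the HGF/SF1 arrays.

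The potassium channel subunit Kcne3 and the pore-forming claudin Cldn2 had the lowest estimates. Cldn2 read 11.91, 10.63 and 10.18 with HGF/SF1 and 10.99, 6.92 and 7.53 with the antibody (-2.43 ± 0.56, and -3.18 without experiment 1, adjusted p = 0.0065), and Kcne3 9.14, 8.15 and 7.35 against 8.08, 4.27 and 4.96 (-2.44 ± 0.56). In both, the groups overlapped and the first pair differed least. Icam1, an adhesion ligand for leukocytes, differed by -0.045, -2.68 and -2.58, the spliceosome protein Txnl4a by -0.036, -2.68 and -2.41 and Mlph, which ties melanosomes to a myosin, by -0.42, -2.75 and -2.36. A dimmer probe set of Mlph was at 0.45 and would be called higher, and that of Txnl4a was at -0.12 and not called. Fbxo9, a ubiquitin ligase subunit (-1.95 ± 0.44), and Dido1 (-2.03 ± 0.36) were also least different in experiment 1 (-0.67 and -0.99).

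**Figure D2:**
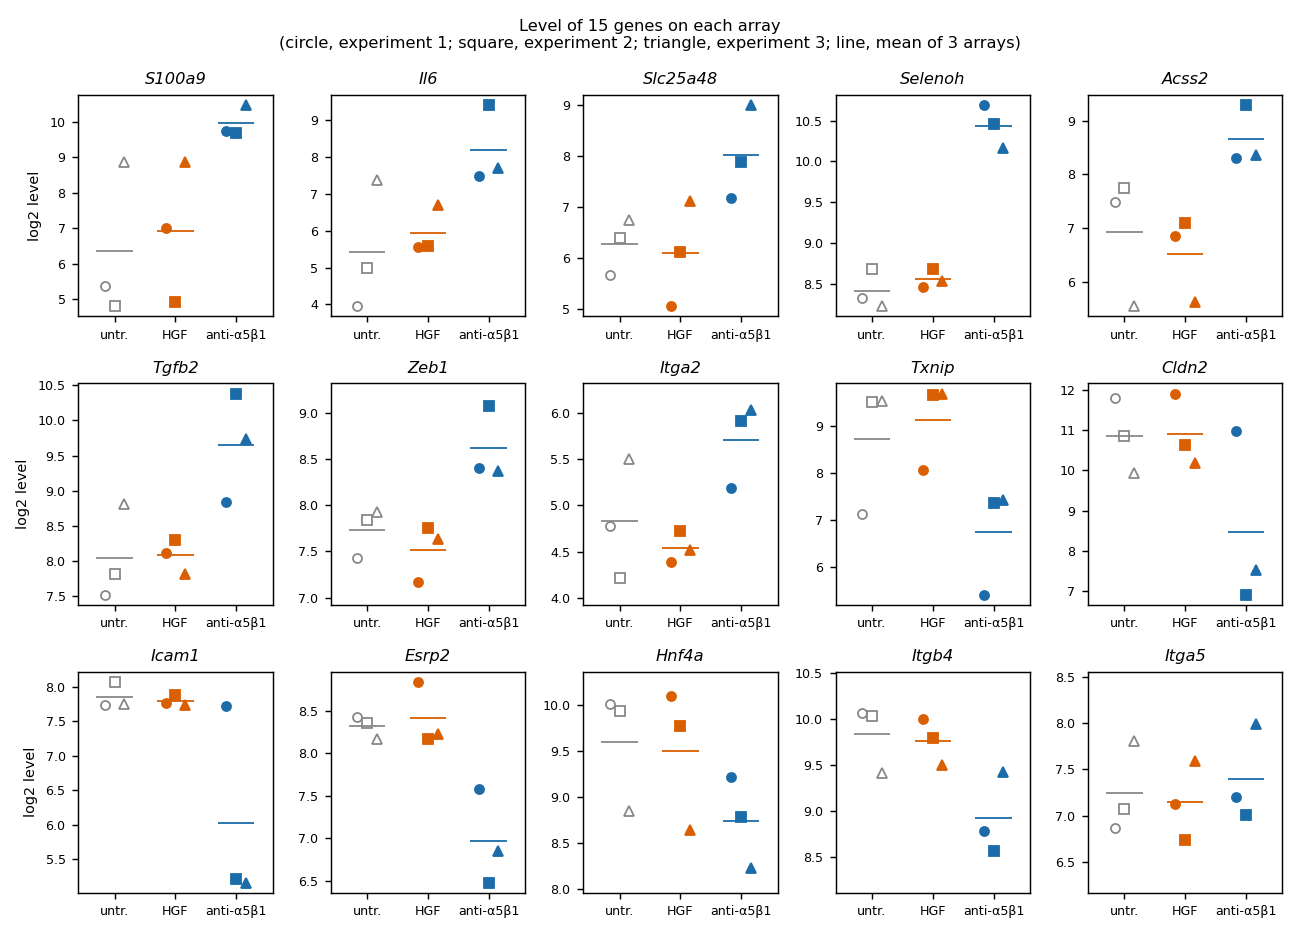
Deposited log2 level (vertical axes, scaled per gene) of 15 genes on the 9 arrays, in untreated cells (grey, open, not in the test), with HGF/SF1 (orange) and with the antibody (blue), where the symbol gives the experiment and the line the mean of 3 arrays. Antibody and HGF/SF1 arrays are apart in every gene of the upper row, overlap for Cldn2, Hnf4a and Itga5, and for Icam1 the antibody array of experiment 1 sits just under the HGF/SF1 arrays.

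By their brightest probe sets, the transcripts of the antigen and of its ligand were not called. Itga5 read 7.12, 6.73 and 7.60 with HGF/SF1 and 7.20, 7.00 and 7.99 with the antibody, a difference of 0.25 with a 95% interval from -0.059 to 0.55, and the groups overlapped. Itgb1 (0.16, interval -0.11 to 0.42), fibronectin Fn1 (0.13, interval -0.42 to 0.68), Itgb3 (-0.019, interval -0.58 to 0.54), Met (0.037, interval -0.22 to 0.29) and Hgf (0.13, interval -0.16 to 0.43) were not called either. A second probe set of Itgb1, with a mean level of 9.71 against 9.82, was at 0.38 and would be called. Fn1 was at -0.093 without experiment 1. Of 11 genes of RGD-binding integrins and fibronectin, 1 was called (1 and 0 without experiment 1), the αv subunit Itgav, which read 10.41, 10.43 and 10.18 against 10.59, 11.51 and 11 (0.69 ± 0.21, and 0.95 without experiment 1, adjusted p = 0.014).

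Among 18 laminin and collagen receptors and laminin chains, 2 were called higher and 1 lower (4 and 1 without experiment 1). The shares, 11.1% and 5.56%, were near those of all genes (6.61% and 9.24%). Itga2, the α subunit of a collagen receptor, read 4.39, 4.72 and 4.51 with HGF/SF1 and 5.19, 5.92 and 6.03 with the antibody (1.17 ± 0.17). Itgb4, the β subunit of the laminin receptor of hemidesmosomes, read 10.00, 9.79 and 9.50 against 8.78, 8.57 and 9.42 (-0.84 ± 0.27). The groups were apart in both, but the pair of experiment 3 differed little in Itgb4 (-0.079) and its estimate without experiment 1 was -0.65 (adjusted p = 0.2). The laminin chain Lamc1 was higher by 0.66 ± 0.12.

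Of 29 focal adhesion genes, 5 were called higher and 2 lower (5 and 2 without experiment 1), with a median difference of -0.024 against -0.0098 for all genes. The shares called were 17.2% and 6.9%, against 6.61% and 9.24% of all genes. Enah, which extends actin filaments at the leading edge, read 8.17, 9.0 and 8.49 against 9.0, 9.90 and 9.75 (1.00 ± 0.13). Its groups were apart. Lims1, a partner of integrin-linked kinase (0.67 ± 0.11), Src (0.58 ± 0.13) and vinculin Vcl (0.30 ± 0.097) were higher and the exchange factor Arhgef7 lower (-0.59 ± 0.12). Of 45 genes of actin assembly 5 were higher and 2 lower (4 and 2 without experiment 1), with the formin Diaph3 (1.09 ± 0.20), the tropomyosin Tpm4 (0.64 ± 0.12) and the crosslinker Actn1 (0.48 ± 0.11) among the higher and the Arp2/3 subunit Arpc5 (-0.56 ± 0.13) among the lower.

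In the matrix and protease lists, every gene called was higher with the antibody. Of 32 collagen and matrix genes 4 were higher (12.5%, against 6.61% of all genes) and 0 lower (against 9.24%; 2 and 0 without experiment 1), among them the matricellular protein Ccn1 (1.39 ± 0.25), the collagen Col5a1 (1.3 ± 0.25) and Timp3, an inhibitor of metalloproteases (0.66 ± 0.16). The other 2 probe sets of Col5a1 were at 0.11 and 0.11, neither of them called, and those of Timp3 ranged from 0.11 to 0.46. Of 24 metalloproteases and Adam proteases, Adam8 (1.21 ± 0.31) and Adam10 (0.41 ± 0.11) were called higher (1 and 0 without experiment 1). Of 14 genes of the plasminogen system, the activator Plat read 8.83, 9.74 and 9.88 against 9.69, 10.51 and 10.45 (0.73 ± 0.11), and St14 (0.40 ± 0.097) and Slpi were higher too (2 and 0 without experiment 1). The medians of these 3 lists were 0.024, 0.072 and 0.0077. Their shares called higher were 12.5%, 8.33% and 21.4%, against 6.61% of all genes.

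Of 24 cadherin, catenin and desmosome genes 1 was called in each direction (3 and 0 without experiment 1), and E-cadherin Cdh1 differed by -0.12 (interval -0.45 to 0.20). In the tight junction list of 24 genes, Cldn2 was lower and the scaffold genes Tjp1 (0.42 ± 0.10) and Magi3 (0.61 ± 0.14) and the connexin Gja1 (0.43 ± 0.14) were higher (1 and 1 without experiment 1). Of 17 EMT repressors and epithelial regulators 2 were called in each direction (4 and 2 without experiment 1). The epithelial Ets factor Elf3 read 6.10, 7.28 and 7.38 with HGF/SF1 and 7.49, 8.87 and 9.15 with the antibody (1.59 ± 0.12), and Zeb1, a repressor of epithelial genes, 7.17, 7.75 and 7.63 against 8.41, 9.08 and 8.37 (1.10 ± 0.16), with the dimmer of its probe sets at -0.0016. Esrp2 and the epithelial factor Grhl1 (-0.51 ± 0.14) were lower. In Elf3 and Zeb1 every antibody array was above every HGF/SF1 array.

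Of 35 ERK feedback and immediate response genes, 7 were called higher with the antibody (20% against 6.61% of all genes) and 2 lower (5.71% against 9.24%). The list median was 0.28, and 9 members were higher and 2 lower without experiment 1. Spry2, a feedback inhibitor of receptor tyrosine kinases, read 6.27, 7.37 and 6.89 with HGF/SF1, 7.37, 8.34 and 7.71 with the antibody and 7.29, 7.22 and 7.67 in untreated cells (0.96 ± 0.11). Its untreated mean was closer to the antibody mean. Dusp1, a phosphatase of MAP kinases, was higher by 0.85 ± 0.11, the AP-1 subunit Jun by 1.51 ± 0.30 and the small Maf gene Maff by 0.90 ± 0.15, while Fosl1 (-0.93 ± 0.23) was lower. Mafk, a small Maf gene of the AP-1, Atf and Maf list, was lower too (-0.88 ± 0.11). In that list of 20 genes 4 were higher and 3 lower (4 and 3 without experiment 1). Of 23 genes of HGF, Met and their adaptors 2 were called in each direction (2 and 1 without experiment 1), Lrig1, which limits receptor kinases (0.58 ± 0.20, 1 of 3 probe sets lower), and Braf (0.31 ± 0.099) higher, and the adaptor Shc1 (-0.36 ± 0.12) and Map2k2 (-0.32 ± 0.10) lower. Dimmer probe sets of Spry2 (0.16), Jun (0.32), Shc1 (-0.081) and Map2k2 (-0.39) were not called.

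The ligand gene Tgfb2 read 8.11, 8.30 and 7.81 with HGF/SF1 and 8.84, 10.38 and 9.74 with the antibody, and the groups were apart. The difference was 1.58 ± 0.30, and 2.01 without experiment 1 (adjusted p = 0.0056), and its 3 probe sets were all higher. Of 38 TGF-beta pathway genes 4 were called higher and 2 lower (6 and 4 without experiment 1), with the transducer Smad3 (0.59 ± 0.11, and 0.19 by its other probe set, which was not called) and the feedback gene Skil (0.52 ± 0.14) higher and Id2, a target of BMP signals, lower (-1.03 ± 0.26).

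IL-6 family signaling had 8 of its 23 measured members called higher (34.8% against 6.61% of all genes) and 2 lower (8.7% against 9.24%). Without experiment 1, 6 were higher and 1 lower at an adjusted p under 0.05. Beside Il6 and Pim1, the kinase gene Pim3 (0.91 ± 0.13) was higher, as was the transcription factor Cebpb (10.16, 10.14 and 10.88 against 10.69, 11.09 and 11.71, 0.77 ± 0.13), and the kinase gene Tyk2 (-0.53 ± 0.10) and the cytokine Ctf1 (-0.42 ± 0.098) were lower. Cebpb overlapped between the groups. Of 30 NF-kappaB genes 5 were higher and 3 lower (5 and 5 without experiment 1), Icam1 and Myd88 among the latter. The inhibitor Nfkbia read 10.29, 10.74 and 10.79 against 11.91, 11.87 and 11.74 (1.23 ± 0.17), and Tnfaip3 (0.72 ± 0.14) and Traf2 (0.65 ± 0.19) were higher too. Ccl2 and Ccl7 were the 2 chemokines called of 27 (2 and 2 without experiment 1), and Ccl2 differed most in experiment 1 (2.01, 0.70 and 0.38) and had an adjusted p of 0.063 without it. Of 20 prostaglandin genes 3 were higher and 1 lower (3 and 0 without experiment 1), with Pla2g4a, which frees arachidonic acid (1.09 ± 0.17), and the receptor Ptger4 (1.11 ± 0.23) higher and the phospholipase Pla2g6 lower (-0.53 ± 0.16). The dimmer probe set of Ptger4 was at 0.19 and not called.

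Hif1a, the oxygen-regulated transcription factor, read 10.40, 10.40 and 10.43 with HGF/SF1 and 10.76, 11.88 and 11.51 with the antibody (0.97 ± 0.24), and its 4 probe sets were all higher. Every antibody array was above every HGF/SF1 array. Of 28 hypoxia genes 5 were called higher and 1 lower (5 and 4 without experiment 1), with the mTOR inhibitor Ddit4 (1.55 ± 0.38) and the glycolytic activator Pfkfb3 (1.68 ± 0.44) higher and the prolyl hydroxylase Egln2 lower (-0.53 ± 0.14). The pairs of Pfkfb3 differed by 0.41, 2.12 and 2.5, and its dimmer probe set was at 0.29 and not called. Of 18 glycolysis genes 3 were higher and 0 lower (3 and 0 without experiment 1), hexokinase Hk2 (0.92 ± 0.26), Eno2 (0.74 ± 0.22) and Pfkm (0.52 ± 0.15).

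**Figure D3:**
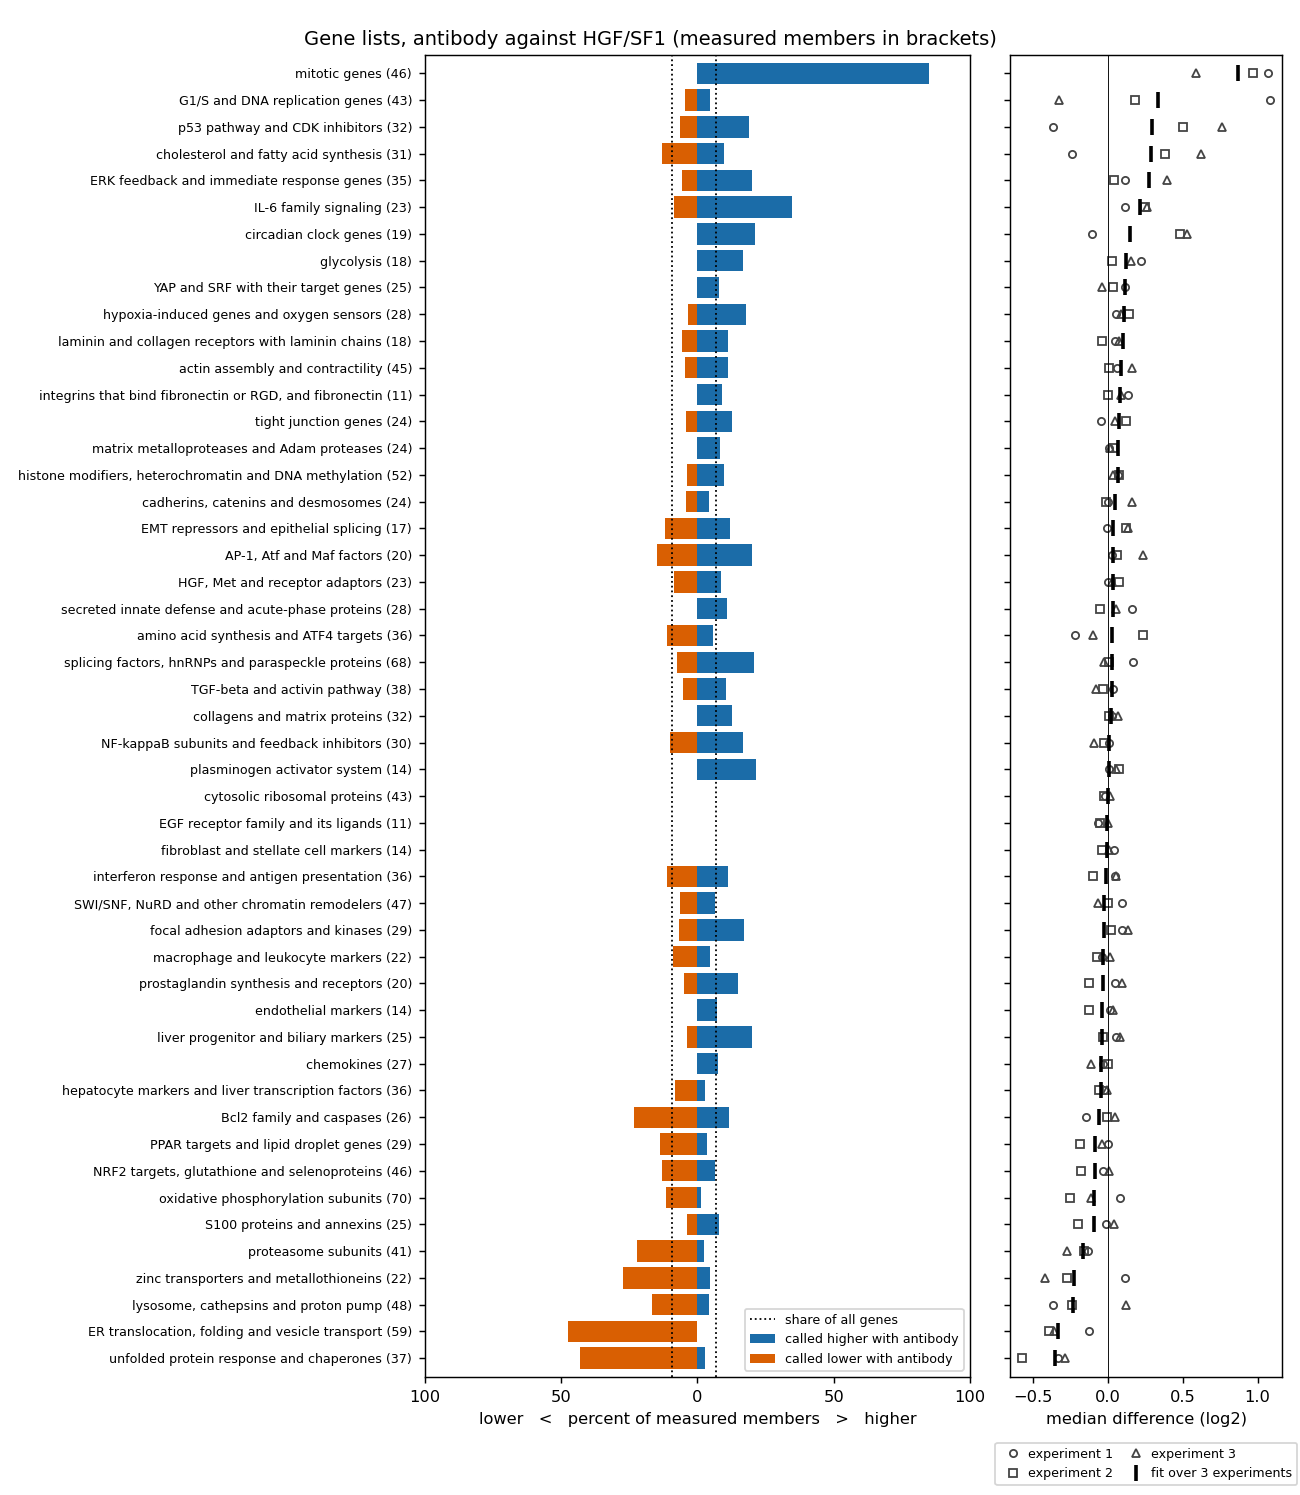
Share of the measured members of 49 gene lists called higher (blue, right) or lower (orange, left) with the antibody than with HGF/SF1, with dotted lines at the shares of all genes (6.61% and 9.24%), and in the right panel the median difference (log2) of each list in the fit and in each experiment. Lists are ordered by the median of the fit, and mitotic genes (84.8% higher), ER transport (47.5% lower) and the unfolded protein response (43.2% lower) lie farthest from the dotted lines.

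Mitotic genes build the spindle, condense and separate chromosomes and drive the cell through G2 and M. Of 46 measured members, 39 were called higher with the antibody (84.8% against 6.61% of all genes) and 0 lower, with a median difference of 0.87. The medians were 1.07, 0.97 and 0.59 in experiments 1, 2 and 3, and 26 members were higher and 0 lower at an adjusted p under 0.05 without experiment 1. The condensin gene Smc4 read 9.14, 9.88 and 9.43 with HGF/SF1 and 10.49, 11.29 and 10.56 with the antibody (1.3 ± 0.11). Cdc25b, a phosphatase that activates Cdk1, was higher by 1.16 ± 0.097, Ube2c, the ubiquitin carrier of the anaphase-promoting complex, by 1.02 ± 0.11, and the proliferation marker Mki67 by 1.03 ± 0.12. The called members differed by 0.46 to 1.3.

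All 3 antibody arrays were above the HGF/SF1 arrays for 13 of the 39 called genes, and the other 26 overlapped, while 52.4% of all genes called higher had all 3 arrays above. The mean over the members was 8.19, 8.79 and 8.19 with HGF/SF1, 9.19, 9.76 and 8.71 with the antibody and 9.22, 8.95 and 8.15 in untreated cells of experiments 1, 2 and 3. In experiment 1 the HGF/SF1 array was the low one, with antibody and untreated arrays close to each other, and in experiments 2 and 3 the antibody array was the high one, with HGF/SF1 and untreated arrays close. The untreated mean was closer to HGF/SF1 for 27 of the 39 and closer to the antibody for 12. In bulk RNA, a different share of cells in mitosis and a different amount of these transcripts per cell cannot be told apart. Without the pairing, 22 of the 46 were called higher.

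Few genes of the preceding cell cycle phase were called, 4.65% in each direction, against 6.61% higher and 9.24% lower of all genes. Of 43 genes of G1/S and DNA replication, 2 were called higher and 2 lower (2 and 4 without experiment 1), and the medians of the experiments were 1.08, 0.18 and -0.32. Cdt1, which licenses replication origins, was higher (0.95 ± 0.26, with 1 of 3 probe sets lower), as was the pocket protein Rb1 (0.85 ± 0.28), and cyclin Ccnd2 (-0.86 ± 0.20, with 1 of 7 probe sets higher) and its kinase Cdk4 (-0.61 ± 0.22) were lower. Of 32 genes of p53 and the CDK inhibitors 6 were higher and 2 lower (16 and 1 without experiment 1), among the former the inhibitors Cdkn1c (0.66 ± 0.10), Cdkn2d (0.95 ± 0.20) and Cdkn2b (0.58 ± 0.15) and the death receptor Fas (0.76 ± 0.17).

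Promoters of mitotic genes are known to share the CHR element TTTGAA near the start site and CCAAT boxes before it, which are bound by the DREAM and NF-Y complexes. RefSeq promoters (GRCm38.p6, 250 bases before to 50 after the start) were matched to 40 of the 46 measured genes. Of these, 28 (70%) held TTTGAA and 30 (75%) held CCAAT on either strand, against 15.4% and 42.3% of the 9887 measured genes with a promoter and 20.2% and 41.1% of all 27025. Among 34 promoters of G1/S genes 8.82% held TTTGAA and 64.7% CCAAT, and among 31 of the unfolded protein response 0% and 83.9%. These motifs were chosen after the values were seen, and a match is a description and not a bound site. The promoters of Ccnb2 (chr9:70421505-70421804, minus strand), Ube2c (chr2:164769679-164769978, plus strand) and Kif4 (chrX:100625815-100626114, plus strand) are shown because they hold both, 5′ to 3′ along the gene, with each TTTGAA and CCAAT in capitals on either strand.
Ccnb2: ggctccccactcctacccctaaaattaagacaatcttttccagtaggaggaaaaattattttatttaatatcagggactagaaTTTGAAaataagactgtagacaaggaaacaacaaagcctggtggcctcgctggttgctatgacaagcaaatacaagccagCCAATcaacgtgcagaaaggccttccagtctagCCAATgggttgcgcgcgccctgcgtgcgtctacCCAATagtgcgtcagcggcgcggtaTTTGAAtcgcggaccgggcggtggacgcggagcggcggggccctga
Ube2c: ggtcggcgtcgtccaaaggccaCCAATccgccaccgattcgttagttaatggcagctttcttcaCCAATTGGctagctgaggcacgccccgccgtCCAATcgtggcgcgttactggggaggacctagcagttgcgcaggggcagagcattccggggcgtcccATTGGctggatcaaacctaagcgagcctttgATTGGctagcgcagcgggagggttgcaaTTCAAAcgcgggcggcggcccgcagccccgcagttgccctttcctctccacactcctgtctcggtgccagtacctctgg
Kif4: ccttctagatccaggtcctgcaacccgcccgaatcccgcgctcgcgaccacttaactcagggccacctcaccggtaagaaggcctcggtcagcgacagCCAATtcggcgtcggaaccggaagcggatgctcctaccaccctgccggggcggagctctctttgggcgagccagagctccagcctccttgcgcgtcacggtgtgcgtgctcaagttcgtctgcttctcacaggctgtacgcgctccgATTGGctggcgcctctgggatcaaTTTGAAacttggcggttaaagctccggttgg
Cyclin B2 (Ccnb2) was higher by 1.03, 0.60 and 0.84 in the 3 experiments, Ube2c by 1.16, 0.91 and 1.01 and the chromosome-bound kinesin Kif4 by 1.29, 1.25 and 0.83. Ccnb2 and Kif4 were chosen for their promoters, after their values were seen.

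Many genes that move proteins into the ER and on to the Golgi were called lower with the antibody. Of 59 measured members, 28 were called lower (47.5% against 9.24% of all genes) and 0 higher, with a list median of -0.33 and differences of the called members from -1.10 to -0.32. For 23 of the 28, all 3 antibody arrays were below the HGF/SF1 arrays, as for 65.6% of all genes called lower. Sec24d, of the COPII coat that buds from the ER, read 8.77, 8.89 and 8.69 against 7.92, 7.78 and 7.40 (-1.09 ± 0.13), and Sec31a of the same coat 9.23, 9.16 and 9.46 against 8.45, 8.27 and 8.68 (-0.82 ± 0.098). Uso1, a tether of these vesicles, differed by -0.65, -0.57 and -0.73, and the cargo receptor Lman2 (-1.08 ± 0.26), the glycan enzyme Mgat2 (-1.10 ± 0.25) and Slc35e1 (-1.02 ± 0.15) were lower too. These 6 genes had all antibody arrays below all HGF/SF1 arrays.

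The ER list differed least in experiment 1, with medians of -0.13, -0.39 and -0.36. Without experiment 1, 20 members were lower and 1 higher at an adjusted p under 0.05. The number called lower at an unadjusted p was 8 without experiment 2 and 10 without experiment 3. The mean over the members was 9.80, 9.99 and 10.04 with HGF/SF1, 9.67, 9.58 and 9.62 with the antibody and 9.86, 9.95 and 10.07 in untreated cells, and for all 28 called genes the untreated mean was closer to HGF/SF1.

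Of 37 genes of the unfolded protein response and chaperones, 16 were called lower (43.2% against 9.24% of all genes) and 1 higher, Ern1, the sensor IRE1α (0.38 ± 0.11, 1 of 3 probe sets lower), which was named after its value was seen. The list median was -0.35, with -0.33, -0.57 and -0.29 in the 3 experiments. Eif2ak3, the sensor kinase PERK, read 9.63, 8.93 and 8.90 with HGF/SF1 and 8.16, 8.11 and 7.78 with the antibody (-1.14 ± 0.16), and the groups were apart. Its other probe sets, which were dimmer, were at -0.051 and -0.042 and not called. Dnajb11 of the ER lumen (-0.73 ± 0.13) and the cytosolic chaperones Hsph1 (-0.87 ± 0.14) and Dnaja1 (-0.69 ± 0.11) were lower. Hspa5 (BiP), the main ER chaperone, was not called (-0.26, interval -0.75 to 0.24), and is named after its value was seen. Without experiment 1, 11 members were lower and 0 higher at an adjusted p under 0.05 in limma. The number called lower at an unadjusted p was 7 without experiment 2 and 10 when experiment 3 was left out.

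**Figure D4:**
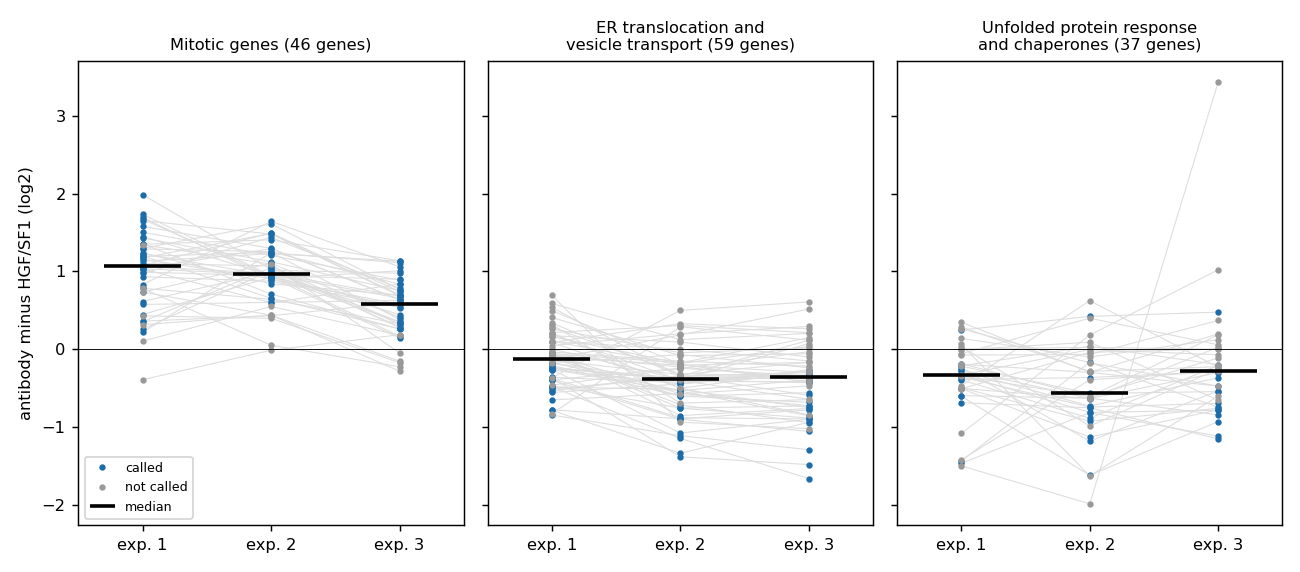
Difference between antibody and HGF/SF1 (log2, vertical axis) of every measured member of 3 lists in experiments 1, 2 and 3, with grey lines joining a gene, blue points for genes called in the fit of all 3 and a black bar at the median. Medians of mitotic genes are 1.07, 0.97 and 0.59 and those of ER transport genes -0.13, -0.39 and -0.36, and the single point above 3 on the right is Hspa1b in experiment 3.

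Genes switched on by ER stress sensors often carry the ER stress response element, CCAAT and CCACG with 9 bases between them. Promoters were matched to 31 of the 37 genes, and 9 (29%) held the element on either strand, against 0.182% of measured genes and 0.137% of all promoters, and 0 of 50 in the ER transport list. Among the called genes 4 of 15 held it. The element contains a CCAAT box and was chosen after the values were seen. The promoters of Dnajc3 (chr14:118937682-118937981, plus strand), Syvn1 (chr19:6046326-6046625, plus strand) and Calr (chr8:84846882-84847181, minus strand) are shown because these genes hold the element and were called lower, with its outer parts in capitals.
Dnajc3: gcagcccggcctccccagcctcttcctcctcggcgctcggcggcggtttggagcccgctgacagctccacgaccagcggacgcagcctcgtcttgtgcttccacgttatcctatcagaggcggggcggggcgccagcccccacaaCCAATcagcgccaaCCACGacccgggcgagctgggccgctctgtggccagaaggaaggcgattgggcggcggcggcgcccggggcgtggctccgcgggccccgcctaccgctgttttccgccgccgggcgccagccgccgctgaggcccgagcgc
Syvn1: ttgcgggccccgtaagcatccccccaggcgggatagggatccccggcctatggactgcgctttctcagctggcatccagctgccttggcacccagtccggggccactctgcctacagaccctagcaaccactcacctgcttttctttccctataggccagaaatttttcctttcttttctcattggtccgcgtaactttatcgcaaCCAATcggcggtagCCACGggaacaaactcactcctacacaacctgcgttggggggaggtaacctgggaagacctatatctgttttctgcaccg
Calr: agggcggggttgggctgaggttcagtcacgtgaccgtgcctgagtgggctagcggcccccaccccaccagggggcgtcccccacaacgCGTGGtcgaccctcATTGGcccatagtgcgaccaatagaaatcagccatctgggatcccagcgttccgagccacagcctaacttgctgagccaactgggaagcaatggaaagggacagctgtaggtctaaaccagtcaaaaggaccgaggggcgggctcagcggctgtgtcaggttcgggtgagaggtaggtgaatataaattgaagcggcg
Dnajc3, a co-chaperone that inhibits PERK, differed by -0.51, -1.13 and -0.78, Syvn1, a ubiquitin ligase of ER-associated degradation, by -0.61, -1.62 and -0.93, and the calcium-binding chaperone Calr by -0.40, -0.89 and -0.21. These 3 genes were chosen for their promoters and for being called lower, so their direction was fixed by the choice. By its other probe sets Calr was at -0.40 and -0.44, and these were not called. The site of the ER stress sensor ATF6 was found in 8 of 50 promoters of the ER transport list (16%), against 3.01% of measured genes. In the unfolded protein response list, 1 of 31 promoters held this site (3.23%). The core of hypoxia sites was found in 62% of the ER transport promoters and 38.7% of the unfolded protein response promoters, against 26.9% of measured genes. These shares are a description. The AP-1 site TGANTCA was found in 7.69% of 91 promoters of genes called at least 2-fold higher, 8.42% of 95 of those called lower and 7.69% of measured genes, and the hypoxia core ACGTG in 30.8%, 35.8% and 26.9%.

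**Figure D5:**
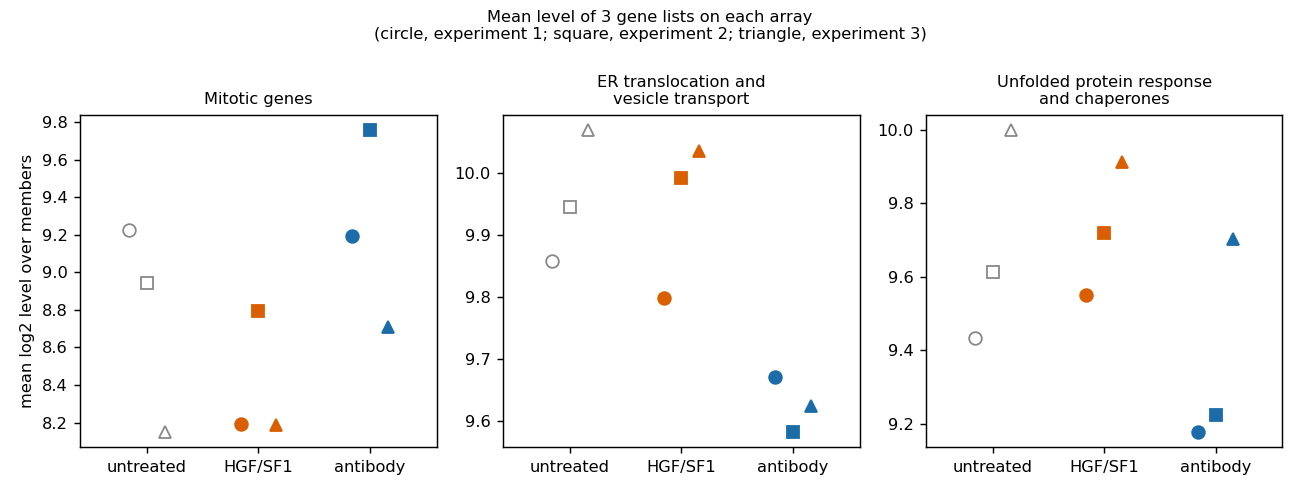
Mean log2 level over the members of the 3 lists (vertical axes, each with its own range) on each of the 9 arrays, by treatment (horizontal axes), with the experiment as symbol. The HGF/SF1 array of experiment 1 has a mitotic mean of 8.19 beside 9.22 in its untreated array, and for ER transport the antibody array is the lowest of its day in each experiment.

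Of 41 proteasome subunits 1 was called higher and 9 lower (1 and 4 without experiment 1), among the latter Psma7 (-0.56 ± 0.10) and Psmd13 (-0.51 ± 0.10). Of 22 zinc genes 1 was higher and 6 lower (0 and 4 without experiment 1). The shares called lower were 22% and 27.3%, against 9.24% of all genes. The zinc importer Slc39a4 read 13.08, 12.22 and 12.05 against 11.37, 11.01 and 11.61 (-1.12 ± 0.27), with the groups apart, and Slc39a9 was lower by its brightest probe set (-1.34) and at 0.10 and 0.034 by the others. Splicing factors had 14 of 68 higher (20.6% against 6.61% of all genes) and 5 lower with all experiments, but 10 and 10 without experiment 1. Their medians were 0.17, 0.0080 and -0.025. None of 43 cytosolic ribosomal protein genes was called in limma at the unadjusted threshold, and none passed the adjusted one without experiment 1. Of 19 clock genes 4 were higher and 0 lower (8 and 0 without experiment 1), Dbp, the repressors Nr1d1 (1.06 ± 0.37) and Bhlhe40 (1.18 ± 0.43) and the kinase gene Csnk1e (0.67 ± 0.17), and the list medians were -0.10, 0.48 and 0.53. Among lipid genes, Elovl6, which lengthens fatty acids (-0.92 ± 0.17), and Cpt1a, which admits them to mitochondria (-0.87 ± 0.16), were lower and the receptor Pparg higher (0.89 ± 0.28).

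Of 36 hepatocyte genes and liver factors 1 was higher and 3 lower (1 and 3 without experiment 1). Hnf4a, the hepatocyte nuclear factor, read 10.09, 9.76 and 8.64 with HGF/SF1 and 9.21, 8.78 and 8.23 with the antibody (-0.76 ± 0.15), overlapping between groups though lower in each pair, and the pioneer factor Foxa1 was lower (-0.72 ± 0.11). The other probe sets of Hnf4a were at -0.70 (it would be called), -0.55 and -0.29. Of 25 progenitor and biliary genes 5 were higher and 1 lower (2 and 1 without experiment 1), and the biliary factor Sox9 read 4.61, 4.98 and 5.02 against 5.03, 5.99 and 6.44 (0.96 ± 0.22). Its groups were only just apart, and its dimmer probe set was at 0.043 and not called. Krt19 (-0.12, interval -0.66 to 0.43), Epcam (0.059, interval -0.26 to 0.38) and Afp (-0.17, interval -0.65 to 0.30) were not called. None of 14 fibroblast markers was called in limma, nor at the adjusted threshold without experiment 1. Of 14 endothelial markers Cdh5 was called higher (0.49 ± 0.14, and 0.16 by its dimmer probe set), and none passed the adjusted threshold without experiment 1.

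Some genes that the study names were given whatever their values. Sap18, which it names too, was not among them, and each of its probe sets names 2 genes. Of the others, Bnc1 (1.35 ± 0.16) and Vnn3 (1.26 ± 0.18) were higher with the antibody than with HGF/SF1, and Ncoa5, a nuclear receptor coactivator, was lower (-1.14 ± 0.23). Sfpq, a paraspeckle protein, was lower by its brightest probe set (-0.40 ± 0.14). Its other 4 probe sets were at -2.04 (it would be called), -1.01, 0.23 and 0.066, the last 3 of them not called. Nmt1 (0.13, interval -0.34 to 0.60) and Ide (-0.097, interval -0.41 to 0.22) were not called by their brightest probe sets. The 2 dimmer probe sets of Nmt1 were at -0.43 and -1.13, and both would be called lower. Those of Ide were at -1.17 (it would be called), -0.76 and 0.10.

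Untreated cells were closer to HGF/SF1 than to the antibody for most called genes. The mean of the untreated arrays was closer to that of the HGF/SF1 arrays for 1793 of the 1964 called genes (91.3%) and for 64.1% of all genes, with 90.5% of genes called higher and 91.9% of those called lower. The untreated arrays were not part of the test, and these shares are a description.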

How the data were processed

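RNA of MLP29 cells was measured on Affymetrix mouse arrays. The log2 values deposited by the authors, 1 per probe set, came from affylmGUI after an rma background correction of the arrays as a set. The normalization between arrays and the summary per probe set are not given in the sources used here, and values were used as deposited. Of 22690 probe sets, 64 controls were left out. The platform annotation gave 20380 probe sets 1 gene, 691 several and 1555 no gene, and 20351 had a symbol found in RefSeq.

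A gene took its brightest probe set, by the mean over the 6 arrays, among those naming it alone. The difference was fitted with limma 3.58.1 (R 4.3.3) by lmFit and eBayes, with the experiment as a block, two-sided, with Benjamini-Hochberg adjustment over 22626 probe sets and intervals at 95%. The pairing comes from the day in the titles and from the study's statement that each experiment held every condition. After removal of the group means, antibody and HGF/SF1 arrays of the same experiment correlated at 0.0958, 0.381 and 0.394, and since 1 of these is not over 0.1, the values alone would not have set the pairing.

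The members and the 49 gene lists were chosen with earlier results of these data known, 1 further list is not reported here, and lists are described by counts and medians with no test. Named genes were up to 15 with the largest differences in each direction, up to 4 per list with the smallest p and genes fixed by name, of which the text gives a part. The alternatives were no pairing, a random block, all 9 arrays, other scalings, a brightness filter, trended and robust variances, other probe sets and leaving out each experiment. Leaving single treated arrays out of the 9-array fit was added after seeing the data. The fit was tested on simulated data. Promoters were read from RefSeq (GRCm38.p6) and searched on both strands.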

Additional observations from a re-analysis of the deposited data

How the results depend on the processing

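No probe set passed the adjusted threshold in the 6-array fits under any of the other settings of scaling, brightness filter, variance model or block, and 0 without the replicate block. With all 9 arrays 242 did with the replicate block and 5 with no replicate block. Leaving out an experiment gave 0 to 3178, the highest without experiment 1. Leaving single arrays out of the 9-array fit gave 0 to 2628, with 2628 without the antibody array of experiment 1, 3 when the array of HGF/SF1 in experiment 1 was absent and 1 without the antibody array of experiment 3. Unadjusted calls were 2457 without the pairing, 2300 among the brighter probe sets, of which fewer were tested, and 1468 to 6396 without an experiment (lowest without experiment 2, 1787 without experiment 3, highest without experiment 1). They were 2986 to 5739 without single arrays of the 9, the highest without the antibody array of experiment 1.

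Calls within the lists were 319, and 139 to 549 without an experiment or 260 to 491 without single arrays, the highest again without the antibody array of experiment 1. Mitotic genes called higher were 22 without the pairing, 21 with 9 arrays and no pairing, 24 to 39 without an experiment (24 without experiment 2) and 29 to 37 without single arrays. ER transport genes called lower were 8 to 35 and 21 to 36, and unfolded protein response genes 7 to 19 and 13 to 19. Of the 156 genes named, 134 were called, and 79 to 131 without an experiment (79 without experiment 2 and 84 without experiment 3), or 110 to 126 without single arrays. The causes were not tested.

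When each experiment was left out in turn, signs turned for these named genes, all of them uncalled: Cdc6 from -1.81 to 0.57 (turned without experiment 2 and experiment 3), Egr1 from -0.70 to 1.85 (turned without experiment 1 and experiment 3), Epcam from -0.010 to 0.16 (turned without experiment 3), Fn1 from -0.093 to 0.37 (turned without experiment 1), Hspa1b from -1.75 to 0.97 (turned without experiment 1 and experiment 2), Ide from -0.17 to 0.0038 (turned without experiment 3), Itgb3 from -0.27 to 0.20 (turned without experiment 2 and experiment 3) and Krt19 from -0.35 to 0.11 (turned without experiment 2). With arrays centred on their medians, Hspa1b was at 0.0070, with arrays centred on their medians, Itgb3 was at 0.0057 and with quantile normalization of the 6 arrays, Itgb3 was at 0.0020. By another probe set, Ccnd2 was at 0.081, Cdt1 was at -0.070, Ern1 was at -0.15, Hspa1b was at 0.23 and 0.027, Ide was at 0.10, Itgb1 was at -0.10, Lrig1 was at -0.089, Mlph was at 0.45, Nmt1 was at -0.43 and -1.13, Sfpq was at 0.23 and 0.066, Slc39a9 was at 0.10 and 0.034 and Zeb1 was at -0.0016. Of the other values of named genes, 1530 kept direction and side of the threshold, 262 lost the call and 7 gained it. With 3 arrays per treatment and no detection calls used here, small differences and dim probe sets are the least certain.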

Other observations

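The genes described here went opposite ways in different experiments, and all were chosen after their values were seen. Of the 354 genes at least 2-fold apart in both experiments 2 and 3, the 2 that went opposite ways were Egr1, an immediate early transcription factor, and Hspa1b, an inducible heat shock chaperone. Egr1 differed by 1.45, -2.86 and 2.25 in experiments 1, 2 and 3 and Hspa1b by -1.50, -1.99 and 3.44. Cdc6, which loads the replicative helicase at origins, read 4.70, 7.08 and 7.39 with HGF/SF1 and 7.41, 5.49 and 5.35 with the antibody, so that the antibody array was the higher one in experiment 1 and the lower one in experiments 2 and 3. Its estimate over all experiments was -0.30 ± 1.03 and without experiment 1 it was -1.81 (limma, adjusted p = 0.0069). The medians of the p53 and CDK inhibitor list (-0.36, 0.51 and 0.77) and of cholesterol and fatty acid synthesis (-0.24, 0.38 and 0.62) were also of opposite sign in experiment 1 and in the other experiments. Without experiment 1, 13 of 31 genes of the latter list were higher and 1 lower at an adjusted p under 0.05, against 3 higher and 4 lower at an unadjusted p with it.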
